A study of Mus musculus with 8 samples.

Results

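The transcripts of the mouse mitochondrial genome were followed across 4 sites of the oral mucosa and through the depth of each tissue block. Members were all genes that the count tables place on the mitochondrial chromosome, chosen by position and not by level. They were 34 of the 33549 entries with a read, namely 13 protein-coding genes, 2 ribosomal RNA (rRNA) genes and 19 transfer RNA (tRNA) genes. The annotation lists 37 genes on that chromosome. The tRNA genes mt-Ty, mt-Ts1 and mt-Tk had no read. No entry that joined several genes held a mitochondrial gene, and 29 to 33 members had reads in a given sample.

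The data are tomo-seq profiles of wild-type C57BL/6J mice, in which a frozen block is cut into serial sections and each section is sequenced on its own. The sites were hard palate, ventral tongue (the underside), dorsal tongue (the upper surface) and buccal mucosa (the inner cheek), with 2 replicates each. No allele, treatment or age distinguished the groups in the labels. Each of the 8 samples had 20 sections of 14 µm, 280 µm in all. The labels number the replicates without naming animals, and the spread behind each p-value is that between the deposited samples, which may be technical.

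Mitochondrial DNA is a small circle inside the organelle. It encodes subunits of complexes I, III and IV and of the ATP synthase, which are built together with many nuclear-encoded subunits, as well as the rRNAs and tRNAs of the organelle's own ribosome. Both strands are transcribed as long precursors that are cut mostly at the tRNAs lying between the genes, and the messenger RNAs and rRNAs then receive short tails of adenosine. In stratified mucosa the epithelium is mainly keratinocytes, while the underlying tissue can hold connective tissue, vessels and, in tongue and cheek, striated muscle rich in mitochondria.

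Reads were the unit of choice for these genes. Unique molecular identifiers (UMIs) are random tags that mark single molecules, and tags of 6 bases offer a limited number per gene and section, a ceiling that the UMI counts show just above 4000. In 110 of 160 sections at least 1 member had 4000 or more UMIs, and 8 members reached that level in some section. Mitochondrial genes made up 401 of the 986 values at that level among all genes and sections. They had 3.96 to 11.5 reads per UMI, against 1.57 to 2.33 for all other genes. Reads escape the ceiling but hold amplification copies, so the intervals on read shares cover counting error only.

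Totals were 21487105 to 53681980 reads per sample. Buccal mucosa replicate 2 stood apart from the other 7 samples. Its 20 keratinocyte markers summed to 530.5 CPM (counts per 1e6 reads, so scaled to equal sample totals), against 7916 to 42480 elsewhere. Its 14 salivary gland markers summed to 12280 CPM, against 49.86 to 81.80, and its 12 adipocyte markers to 5529 CPM, against 96.56 to 940.4. It carries the label of inner cheek and is kept under it, with values given without it where they differ. Another 6 sections had fewer than 100000 reads, among them section 5 of dorsal tongue replicate 1 with 3306.

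Hard palate had the lowest mitochondrial share of reads and ventral tongue the highest mean share. Mitochondrial genes took 4.356% and 5.488% of reads in hard palate replicates 1 and 2, against 9.02% to 24.1% in the 6 other samples. Both hard palate samples lay below every other sample. Ventral tongue had 24.1% and 18.6%. Replicate 2 of ventral tongue lay below buccal mucosa replicate 2, so ventral tongue overlapped with the other sites. Dorsal tongue had 11.9% and 12.38%, and its replicates were the closest of the 4 sites. Buccal mucosa had 9.02% in replicate 1 and 22.49% in replicate 2, the widest gap between replicates of the 4 sites. Site means were 4.92% ± 0.80 in hard palate, 21.4% ± 3.89 in ventral tongue, 12.1% ± 0.339 in dorsal tongue and 15.8% ± 9.52 in buccal mucosa (SD, n = 2 each). Fewer cells of a type and less RNA per cell cannot be told apart in such bulk sections. The exact binomial 95% interval of a sample's share reached at most 0.018 percentage points to either side. The summed share was not tested, since it is a score over members picked with earlier results known.

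The order of sites depended on the unit. As a share of UMIs the values were 2.29% and 2.11% in hard palate, 4.15% and 3.63% in ventral tongue, 2.78% and 3.02% in dorsal tongue and 2.81% and 7.20% in buccal mucosa. Hard palate remained lowest, and buccal mucosa replicate 2 was now the highest sample. In the estimated transcripts, which correct UMI counts for collisions, the shares were 4.45% and 5.43% in hard palate, against 7.73% to 20.8% in the 6 others. Hard palate was again below all other samples.

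**Figure D1:**
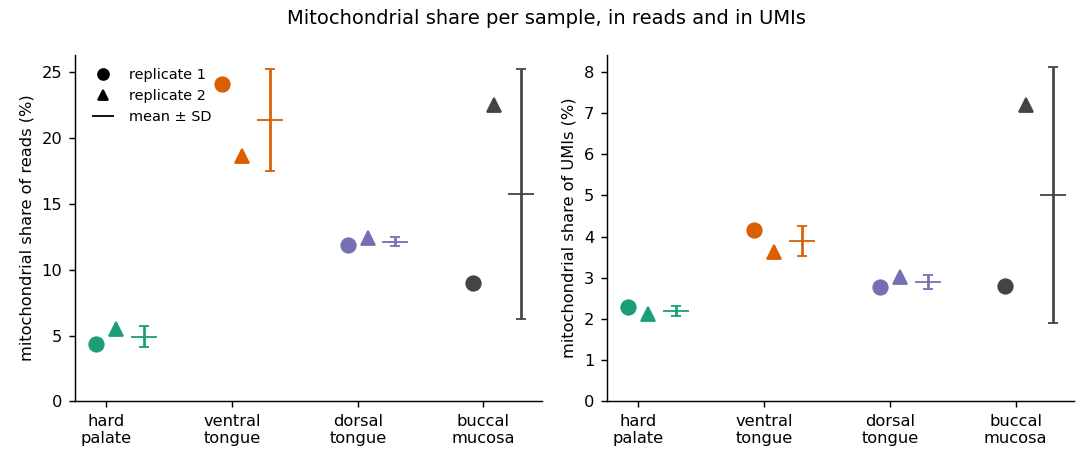
Mitochondrial share per sample as a percentage of reads (left) and of UMIs (right). Circles and triangles are replicates 1 and 2, and the bar beside them is the mean ± SD of 2 samples. Hard palate sits lowest in both panels, at 4.356% and 5.488% of reads, and buccal mucosa spans from 9.02% to 22.49% of reads.

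The share was higher toward the last sections in every sample. In ventral tongue it was 30.7% and 22.7% of reads in sections 16 to 20 of replicates 1 and 2, against 7.89% and 10.7% in sections 1 to 5. In dorsal tongue it was 17% and 18.7% in sections 16 to 20, against 6.50% and 5.65% in sections 1 to 5. In buccal mucosa replicate 1 it was 14.7% in sections 16 to 20, against 3.63% in sections 1 to 5, and in replicate 2 it was 25.1% against 16.9%. The hard palate profile was the flattest, with 4.58% against 3.54% in replicate 1 and 6.03% against 4.45% in replicate 2. The ratio of the last to the first 5 sections thus ran between 1.29 in hard palate replicate 1 and 4.06 in buccal mucosa replicate 1. The bins of 5 sections were chosen after the profiles had been seen.

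Within a sample the share of reads followed the section number closely, except in hard palate replicate 1. Spearman's rank correlation over the 20 sections was 0.94 and 0.95 in ventral tongue, 0.98 in both dorsal tongue samples, 0.85 and 0.82 in buccal mucosa, and 0.52 and 0.90 in hard palate. These are descriptions of neighbouring sections of a single block, not of independent samples. The lowest single section was section 2 of hard palate replicate 1 with 2.93%, and the highest was section 17 of ventral tongue replicate 1 with 37.6%. In UMIs the ratio of last to first 5 sections was 0.859 to 1.15 in 7 samples and 3.17 in buccal mucosa replicate 1. The rank correlation of the UMI share with section number was -0.23 to 0.43 in those 7 samples and 0.71 in buccal mucosa replicate 1. The most abundant members stood near the UMI ceiling in many sections, mt-Nd4 in 108 of 160.

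In the 6 shallow sections no member came near 4000 UMIs. The same held in some deeper sections, where the 2 units were close in some and far apart in others. Section 2 of hard palate replicate 1 had 2.93% of reads and 2.49% of UMIs. Section 1 of buccal mucosa replicate 2 had 17.9% of reads and 7.04% of UMIs. Section 4 of buccal mucosa replicate 1, with 25741 reads, had a share of 7.48% of reads (95% interval 7.16% to 7.81%) and 7.98% of UMIs, while its neighbours had 3.04% and 3.98% of reads. Section 11 of dorsal tongue replicate 2, with 16033 reads, had 14.2% of reads and 14.1% of UMIs, against 9.48% and 11.8% of reads in its neighbours. In dorsal tongue replicate 1 section 5, with 3306 reads, lay below its neighbours at 5.23% of reads (4.50% to 6.05%) and 6.22% of UMIs, against 7.89% and 8.55% of reads. Section 20 of hard palate replicate 1 had 4.80% of reads and 4.55% of UMIs, against 8.68% of reads in section 19. The last 2 sections of buccal mucosa replicate 1 had 13% and 14.5% of reads and 12.9% and 13.6% of UMIs. Read and UMI shares thus lay within about 1 percentage point of each other in all 6 shallow sections, above their neighbours in some and below them in others. Section 4 and section 11 are single points off the curve in buccal mucosa replicate 1 and dorsal tongue replicate 2. Without the 6 of them the rank correlation with section number was 0.90 in buccal mucosa replicate 1 and 0.56 in hard palate replicate 1.

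**Figure D2:**
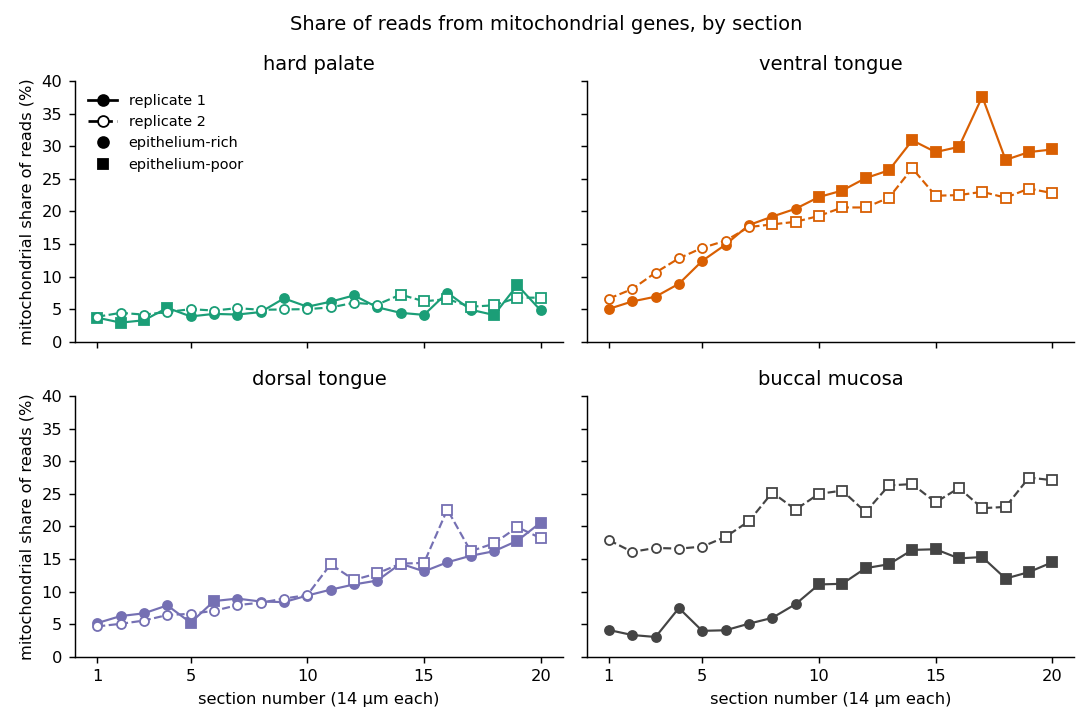
Mitochondrial share of reads (%) by section number, 20 sections of 14 µm per sample. Filled symbols with solid lines are replicate 1, open symbols with dashed lines replicate 2, circles are epithelium-rich and squares epithelium-poor sections. Ventral tongue replicate 1 reaches 37.6% at section 17, while hard palate replicate 1 stays between 2.93% and 8.68%.

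A few genes carried nearly all of the signal. The 5 most abundant members of a sample held 85.9% to 91.4% of its mitochondrial reads. Messenger RNAs made up 77.0% to 89.6%, rRNAs 4.62% to 19% and tRNAs 4.06% to 8.58%. The rRNA part was 12.7% and 19% in hard palate, 5.40% and 13% in ventral tongue, 6.01% and 5.81% in dorsal tongue and 4.62% and 5.14% in buccal mucosa. Hard palate and ventral tongue replicate 2 were the high samples.

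Among complex I subunits, mt-Nd4 was the most abundant, with a mean of 41600 CPM over the 8 samples. It took 25.7% to 33.6% of mitochondrial reads in every sample. Its level was 11800 and 14100 CPM in hard palate, 79100 and 55300 CPM in ventral tongue, 36000 and 41600 CPM in dorsal tongue and 30300 and 64800 CPM in buccal mucosa. The hard palate samples were the lowest, and ventral tongue overlapped with buccal mucosa replicate 2. mt-Nd1, which lies in the membrane arm of complex I, averaged 25800 CPM and mt-Nd2 10700 CPM. mt-Nd5, also of the membrane arm, was lower at 3130 CPM. Their ranges over samples were 8180 to 43200 CPM, 2430 to 24100 CPM and 780 to 6090 CPM, each with the lowest value in hard palate.

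mt-Cytb, the mitochondrial subunit of complex III, averaged 34300 CPM. It was at 9390 and 13200 CPM in hard palate, 59600 and 42300 CPM in ventral tongue, 32200 and 26800 CPM in dorsal tongue and 22700 and 68600 CPM in buccal mucosa. Hard palate was again below all other samples. mt-Co1, the catalytic subunit of complex IV, averaged 882 CPM. It was at 250 and 278 CPM in hard palate, 1230 and 1450 CPM in ventral tongue, 745 and 833 CPM in dorsal tongue and 633 and 1630 CPM in buccal mucosa. Hard palate did not overlap with the rest.

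Relative to mt-Nd4 the other abundant messenger RNAs spanned narrower ranges than mt-Rnr2 did. mt-Co1 made 0.0156 to 0.0263 reads per read of mt-Nd4 across the 8 samples, a range of 1.69-fold, while the level of mt-Nd4 itself spanned 11800 to 79100 CPM. mt-Nd1, mt-Cytb, mt-Nd2 and mt-Nd5 spanned 1.55-fold, 1.65-fold, 1.75-fold and 2.47-fold relative to mt-Nd4. The large rRNA mt-Rnr2 spanned 5.17-fold relative to mt-Nd4, between 0.116 in buccal mucosa replicate 1 and 0.598 in hard palate replicate 2. The small rRNA mt-Rnr1 spanned 3.14-fold relative to mt-Rnr2. These ratios were looked at after the levels were known and were not tested.

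**Figure D3:**
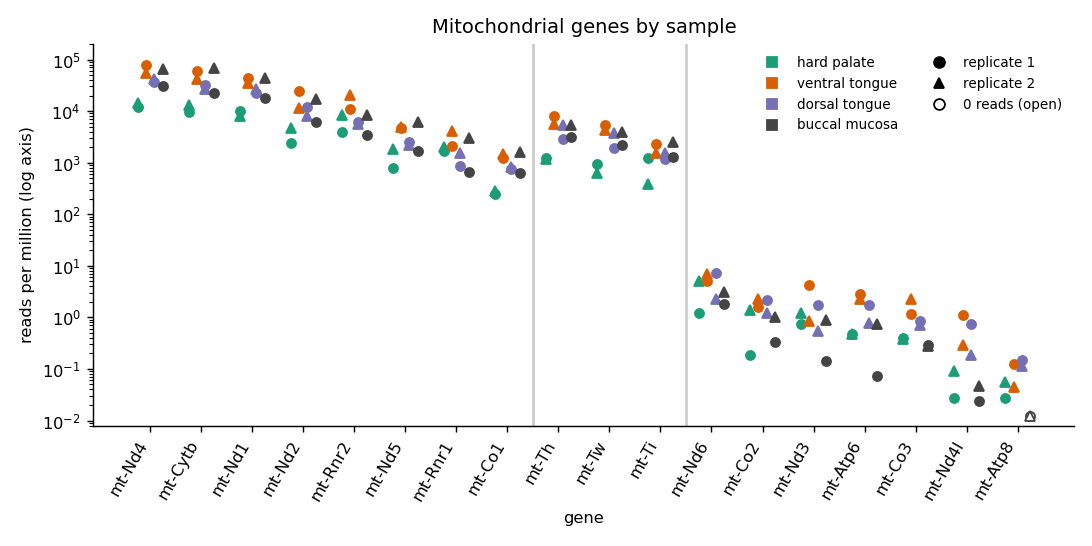
CPM of the 13 protein-coding genes, both rRNA genes and the 3 most abundant tRNA genes, by sample, on a log axis. Colours are sites, circles and triangles replicates 1 and 2, and open symbols at the bottom are samples with 0 reads. The first 8 genes lie between 250 and 79100 CPM, and the last 7, all messenger RNAs, lie at 7.16 CPM or lower.

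Another 7 messenger RNAs were almost absent from the tables. mt-Co2 and mt-Co3 of complex IV had 414 and 259 reads over all samples, mt-Atp6 and mt-Atp8 of the ATP synthase 361 and 21, and mt-Nd3, mt-Nd4l and mt-Nd6 of complex I 385, 95 and 1321. By contrast mt-Nd4 had 12166622. The 6 abundant messenger RNAs had at least 257663 reads each. mt-Nd6 is the messenger RNA on the light strand, whose 7 members together had 0.00391% of mitochondrial reads.

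For 5 of these 7 the annotation of the same build holds a near-complete copy in nuclear DNA on chromosome 1 (GRCm38, minus strand, GENCODE M21). Of the runs of 75 bases in mt-Co2, mt-Atp6, mt-Co3, mt-Nd3 and mt-Nd4l, 97.8% to 99.9% also occurred in an annotated pseudogene. The copies of mt-Co2 (Gm28661), mt-Atp6 (Gm10925), mt-Co3 (Gm28437) and mt-Nd4l (Gm10222) matched at 100% of aligned bases and that of mt-Nd3 (Gm28438) at 99.71%. A read of that length from such a stretch has several equal places of origin. The ends of 2 such pairs are shown because tags of this assay come from 3′ ends. They are chrM:7634-7693 with chr1:24614885-24614944, and chrM:9330-9389 with chr1:24613189-24613248, the mitochondrial gene on the plus strand and the copy on the minus strand. No base differs, so none is in capitals.
mt-Co2: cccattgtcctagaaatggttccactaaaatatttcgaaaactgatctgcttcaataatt
Gm28661: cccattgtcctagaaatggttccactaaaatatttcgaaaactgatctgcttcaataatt
mt-Co3: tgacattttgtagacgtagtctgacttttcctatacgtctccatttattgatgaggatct
Gm28437: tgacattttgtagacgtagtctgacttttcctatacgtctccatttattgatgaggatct

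The ends of most abundant messenger RNAs had no such copy. In mt-Nd4, 61.5% of the runs of 75 bases were shared with the pseudogene Gm28439, but 0% of those in its last 300 bases. mt-Nd1 and mt-Cytb shared 0%. mt-Co1 went the other way, with 39.8% shared over its length and 100% in its last 300 bases, and still had 257663 reads. mt-Nd2 shared 24.3% of its last 300 bases, with the pseudogene Gm13339. Of the rare genes, mt-Atp8 and mt-Nd6 shared 0%. The last 60 bases of mt-Nd4 (chrM:11485-11544) and mt-Cytb (chrM:15229-15288), both plus strand, are shown as ends without a copy. The capital T is the start of a stop codon that the added adenosines complete.
mt-Nd4: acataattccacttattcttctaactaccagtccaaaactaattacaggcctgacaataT
mt-Cytb: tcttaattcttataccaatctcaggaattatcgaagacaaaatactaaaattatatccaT
The near-complete copies on chromosome 1 had read totals of the same order as their mitochondrial genes in most cases. Gm10925 had 349 reads against 361 for mt-Atp6, Gm28437 212 against 259 for mt-Co3, Gm28438 241 against 385 for mt-Nd3, Gm28661 138 against 414 for mt-Co2 and Gm10222 25 against 95 for mt-Nd4l. A further annotated partner of mt-Atp6 had 598, and a further partner of mt-Co2, Gm13341, had 6194. The counting of reads with several equal places is not described in these sources, and the part of these copies in the low counts was not tested. The comparison was made after the low counts had been seen, and it sees annotated transcripts only.

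Of the 19 tRNA genes with reads 3 were abundant, namely mt-Th, mt-Tw and mt-Ti, which carry histidine, tryptophan and isoleucine. They averaged 4070, 2880 and 1490 CPM, and 13 of the other tRNA genes were below 5 CPM. Each of the 3 lies directly behind an abundant messenger RNA. mt-Ti overlaps the end of mt-Nd1 and mt-Tw the end of mt-Nd2 by 2 bases, and mt-Th begins after a gap of 1 base behind mt-Nd4. The sequences of mt-Ti (chrM:3706-3774), mt-Tw (chrM:4950-5016) and mt-Th (chrM:11546-11612), plus strand, show these junctions, with the overlapping bases in capitals.
mt-Ti: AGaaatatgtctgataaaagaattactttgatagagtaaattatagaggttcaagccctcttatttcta
mt-Tw: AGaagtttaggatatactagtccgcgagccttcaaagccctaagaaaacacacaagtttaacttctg
mt-Th: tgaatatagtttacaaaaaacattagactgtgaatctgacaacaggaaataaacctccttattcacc
Per 100 reads of the gene before them, mt-Ti had 4.33 to 12.4 reads, mt-Tw 13.3 to 47.5 and mt-Th 8.09 to 12.7. mt-Tt, which follows mt-Cytb with no gap, had 0.0177 to 0.107 per 100 reads of mt-Cytb. Across the 20 sections of a sample the rank correlation between tRNA and upstream gene was 0.85 to 0.99 for mt-Th, 0.75 to 0.95 for mt-Ti and 0.63 to 0.99 for mt-Tw. Whether these reads came from the tRNA or from an uncut precursor cannot be told apart in gene counts.

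Between sites, edgeR's quasi-likelihood test on reads summed per sample called 1 member. mt-Co1 was lower in hard palate than in the mean of the other 3 sites. It averaged 264 ± 20 CPM in hard palate (SD, n = 2) and 1090 ± 409 CPM elsewhere (SD, n = 6), with a log2 fold change of -2.34 ± 0.52 (SE) and adjusted p = 0.0383 over 19180 genes. This is 1 of the 24 members that passed the filter on low counts, or 4.17%, beside 5.89% of all genes called lower.

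The other abundant messenger RNAs had folds of similar size in hard palate without passing. mt-Nd4 was at -2.28 (adjusted p = 0.198), mt-Cytb at -2.18 (0.214), mt-Nd2 at -2.16 (0.168), mt-Nd1 at -2.10 (0.189) and mt-Nd5 at -1.76 (0.183), all log2 fold changes by the same test. The tRNAs mt-Tw and mt-Th were at -2.51 (0.0578) and -2.36 (0.0681), and mt-Ti at -1.41 (0.215). The rRNAs stood closer to the other sites, with mt-Rnr2 at -0.74 (0.564) and mt-Rnr1 at -0.39 (0.768). All 24 members that passed the filter had a negative fold, with a median of -1.45, beside 0.03 over all genes. In CPM the hard palate samples lay below all 6 others in 10 of 24 members, beside 9.38% of all genes tested. These 10 included mt-Nd1, mt-Nd2, mt-Nd4, mt-Cytb and mt-Co1.

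The number of calls in hard palate depended on the tool and on single samples. DESeq2 called 10 members lower, beside 16.3% of genes called in either direction. With single samples left out, the log2 fold change of mt-Co1 ran from -2.49 to -2.10. It passed only without a buccal mucosa sample, and other members passed with it there.

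Ventral tongue had positive folds in all 24 members tested, with a median of 1.25 beside -0.09 over all genes, and none passed. mt-Nd4 averaged 67200 ± 16800 CPM in ventral tongue (SD, n = 2) and 33100 ± 19500 CPM in the other sites (SD, n = 6), with a log2 fold change of 1.38 and adjusted p = 0.626. mt-Co1 was at 1.27 (0.318), mt-Cytb at 1.2 (0.680) and mt-Rnr2 at 1.5 (0.471). By edgeR 9 members had an unadjusted p under 0.05, beside 2053 of 19180 genes. DESeq2 called 8, beside 4.23% of genes. The 2 ventral tongue samples lay above all others in 6 members, beside 2.72% of genes tested. Without buccal mucosa replicate 2, which overlaps with ventral tongue, the folds of mt-Nd4 and mt-Co1 were 1.67 and 1.61. Some members passed without either buccal mucosa sample.

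Dorsal tongue and buccal mucosa had no member called against the other sites. The members with an unadjusted p under 0.05 by edgeR numbered 1 and 2, beside 1674 and 3661 of 19180 genes. DESeq2 called 0 members in both. Of all genes edgeR called 0.772% in dorsal tongue and 0.881% in buccal mucosa, and DESeq2 2.74% and 7.94%. Dorsal against ventral tongue had 0 members called by either tool, beside 0.00521% of genes by edgeR and 0.714% by DESeq2. By edgeR 0 members had an unadjusted p under 0.05, beside 924 of 19180 genes. All 24 members nevertheless had negative folds, with a median of -0.71 beside 0.05 over all genes, and 17 lay lower in both dorsal than in both ventral samples, beside 27.1% of genes. A test of any difference between the 4 sites called 0 members by edgeR, beside 4.08% of genes, and 11 by DESeq2, beside 17.1%. At an unadjusted p under 0.05 edgeR had 8 members, beside 4239 of 19180 genes.

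Sections were also split by their keratinocyte transcripts. The mean log2 level of 20 keratinocyte genes gave, sample by sample, an epithelium-rich and an epithelium-poor set of sections, and no mitochondrial gene entered that score. The split is made from the same sections, so p-values between regions describe a contrast built from these data. The names are relative within a sample and do not hold across samples. Keratinocyte markers were at 1090 CPM in epithelium-rich sections of buccal mucosa replicate 2, against at least 5450 CPM in epithelium-poor sections elsewhere. Epithelium-poor hard palate had 42800 and 25800 CPM, above all epithelium-rich sections of the other sites (at most 19700 CPM). Hard palate replicate 1 is the weakest split, with keratinocyte markers at 42200 CPM in its epithelium-rich and 42800 CPM in its epithelium-poor sections.

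The mitochondrial share of reads was lower in epithelium-rich sections in 7 of 8 samples. In ventral tongue they took 13.8% and 12.6% of reads in epithelium-rich sections of replicates 1 and 2, against 28.5% and 21.5% in epithelium-poor sections. In dorsal tongue the shares were 10.9% and 7.13% in epithelium-rich sections, against 15.9% and 16.6% in epithelium-poor ones. Buccal mucosa had 4.68% and 16.9% in epithelium-rich sections, against 13.9% and 24.1% in epithelium-poor ones. In hard palate the shares were 4.89% in both epithelium-rich regions, against 3.83% in replicate 1 and 6.21% in replicate 2 in epithelium-poor sections. Hard palate replicate 1 was thus the sample with the opposite order in reads. In UMIs, which are subject to the ceiling, epithelium-rich sections were higher in both hard palate samples (2.75% against 1.74%, 2.31% against 1.87%). They were also higher in replicate 1 of ventral tongue (4.39% against 4.02%) and dorsal tongue (2.79% against 2.75%). Both buccal mucosa samples and replicate 2 of each tongue site kept the order seen in reads.

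By edgeR with the sample as a block, 14 of the 20 members tested fell in epithelium-rich sections and none rose, beside 13.8% of 15639 genes that fell. They included the 6 abundant messenger RNAs and the 3 abundant tRNAs. mt-Nd2 was at 7020 ± 4210 CPM in epithelium-rich and 13100 ± 8310 CPM in epithelium-poor sections (SD, n = 8), a log2 fold change of -0.90 ± 0.24 (SE, adjusted p = 0.0173). mt-Nd1 fell by 0.83 (0.0225), mt-Nd4 by 0.83 (0.0292), mt-Cytb by 0.82 (0.0252), mt-Co1 by 0.79 (0.0103) and mt-Nd5 by 0.74 (0.0129) on the log2 scale. mt-Tw, mt-Th and mt-Ti fell by 0.91 (0.0132), 0.90 (0.0136) and 0.86 (0.0112). Each of these 9 was lower in the epithelium-rich sections of 7 of 8 samples, hard palate replicate 1 being the exception.

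The rRNAs did not pass. mt-Rnr2 was at 8110 ± 4930 CPM in epithelium-rich and 8830 ± 6030 CPM in epithelium-poor sections (SD, n = 8), a log2 fold change of -0.19 with adjusted p = 0.566. mt-Rnr1 was at -0.24 (0.477). Both were higher in the epithelium-rich sections of 3 of 8 samples. In ventral tongue replicate 1 mt-Rnr2 was at 15200 CPM in epithelium-rich and 9040 CPM in epithelium-poor sections, while mt-Nd4 was at 39700 CPM and 96000 CPM in the same regions. The difference between the rRNA and the messenger RNA folds was not tested. Of the rare genes mt-Nd3 fell by 2.86 (0.00600) with 385 reads in all, and mt-Nd6 was at -0.35 (0.225).

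These calls differed with the unit and the tool. In UMI counts 6 members passed, and the most abundant genes had small positive folds (mt-Nd4 0.25, mt-Cytb 0.24, mt-Nd1 0.20), none of which passed. mt-Co1, with no section near the ceiling, had in UMIs 1.04 to 4.19 times the level in sections 16 to 20 that it had in sections 1 to 5, above 1 in 8 of 8 samples. DESeq2 called 11 members, beside 30.1% of genes, and gave mt-Nd1, mt-Nd4 and mt-Cytb adjusted p-values of 0.186, 0.234 and 0.229. With sections 1 to 10 set against 11 to 20 in place of the score, 13 members passed, and without buccal mucosa replicate 1 the number was 8. Shares of all genes called are not given for these fits or for UMI counts, so these numbers describe the fits alone. mt-Nd1, mt-Nd4 and mt-Cytb missed the threshold without buccal mucosa replicate 1, dorsal tongue replicate 2 or either ventral tongue replicate, with adjusted p-values of 0.0539 to 0.0848 by edgeR, and mt-Nd2 without buccal mucosa replicate 1 (0.0515).

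Across the block 11 of the 20 members were higher in sections 16 to 20 than in sections 1 to 5 in 8 of 8 samples, beside 7.16% of genes. They were mt-Nd1, mt-Nd2, mt-Nd4, mt-Nd5, mt-Cytb, mt-Co1 and 5 tRNAs. The median ratio of mt-Nd5 was 2.61 and that of mt-Co1 2.42. mt-Rnr1 was higher in 6 and mt-Rnr2 in 5 of 8 samples. None of the 20 members passed the edgeR test of whether the region difference depends on the site (lowest adjusted p = 0.627). Of all genes 0.00639% were called by it. An unadjusted p under 0.05 was found in 8 members, beside 1121 of 15639 genes. DESeq2 called 3 members there, mt-Nd2, mt-Tw and mt-Th, beside 0.507% of genes. Within ventral tongue mt-Co1 was at -1.24 ± 0.27 and within hard palate at -0.04 ± 0.27 (log2 fold change ± SE), and the edgeR test of dependence on the site did not pass for it.

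**Figure D4:**
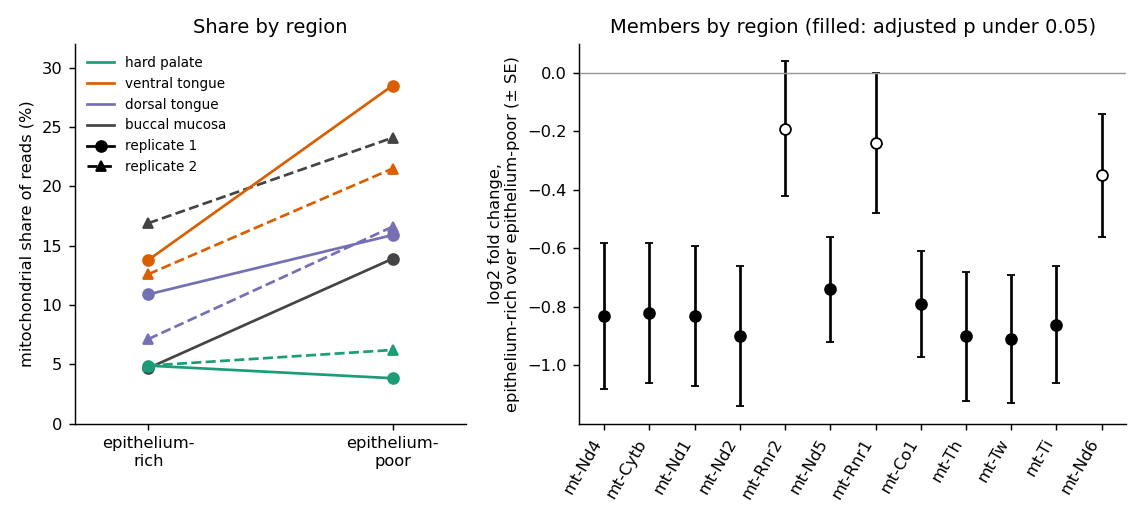
Left, mitochondrial share of reads (%) in epithelium-rich and epithelium-poor sections, a line per sample. Right, log2 fold change of 12 members, epithelium-rich over epithelium-poor, ± SE over 8 samples, with filled symbols for adjusted p under 0.05. Only hard palate replicate 1 slopes downward at left, and the 2 rRNAs sit nearest to 0 at right, at -0.19 and -0.24.

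The nuclear partners of the same complexes were tested in the same fits. Of 79 nuclear genes of oxidative phosphorylation 71 fell in epithelium-rich sections and none rose, with a median log2 fold change of -0.55 beside 0.03 over all genes. They were 34 of 36 for complex I, 4 of 4 for complex II, 9 of 9 for complex III, 11 of 14 for complex IV and 13 of 16 for the ATP synthase. The largest falls were Cox6a2 and Cox7a1, the heart and muscle isoforms of complex IV subunits. Cox7a1 was at 242 ± 216 CPM in epithelium-rich and 500 ± 390 CPM in epithelium-poor sections (SD, n = 8), a log2 fold change of -1.52 ± 0.23 (SE, adjusted p = 0.00118). Cox6a2 fell by 1.66 (0.00261). Both were lower in 8 of 8 samples. Without buccal mucosa replicate 1 39 of the 79 genes fell, and with sections 1 to 10 against 11 to 20 the number was 45. The shares of all genes that fell in those fits are not given here.

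Genes that express mitochondrial DNA were called in smaller numbers. In this fit 13.8% of all genes fell and 12.9% rose. Of 76 mitochondrial ribosomal protein genes tested 28, or 36.8%, fell and none rose (median -0.26). Of 28 genes for transcription, processing and replication of mitochondrial DNA 7 fell (median -0.21), and of 11 regulators of mitochondrial biogenesis 4 fell (median 0.12). Among 81 cytosolic ribosomal protein genes 12 rose and 1 fell (median 0.22), a share of rises near that of all genes. Rps26, a component of the small cytosolic subunit, rose by 0.37 (0.0328), and it missed the threshold without any of 5 samples, namely buccal mucosa replicate 1 and the 4 tongue samples.

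In hard palate 34 of 79 nuclear oxidative phosphorylation genes fell against the other sites and none rose (median -1.64 beside 0.03 over all genes, with 5.89% of all genes called lower). Cox8b, the muscle isoform of another complex IV subunit, was at 2.95 and 0.279 CPM in hard palate, against 116 to 464 CPM in the 6 other samples (log2 fold change -7.81 ± 1.26 SE, adjusted p = 0.0138). Rpl3l, a ribosomal protein paralogue of striated muscle, was at 0.973 and 0.279 CPM, against 103 to 345 CPM (-8.59 ± 0.83, 0.00337). Neither gene overlapped with the other sites. The count of 34 was not stable, since it rose without either buccal mucosa sample and fell without any of the other 6 samples. Of 78 mitochondrial ribosomal protein genes 7 fell, of 29 expression genes 1, and of 11 biogenesis regulators 2.

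In ventral tongue 1 gene of these mitochondrial lists rose. Ppargc1a, the coactivator that drives mitochondrial biogenesis, was at 38.0 and 35.3 CPM in ventral tongue and 2.87 to 27.9 CPM in the 6 other samples (log2 fold change 1.94 ± 0.25 SE, adjusted p = 0.0302, beside 0.959% of genes called higher). Both ventral tongue samples were above all others. None of the 79 oxidative phosphorylation genes passed there, with a median of 1.04. Rpl3l rose in ventral tongue (3.31, 0.0341) and in buccal mucosa (3.21, 0.0407), both set against means that include hard palate. These comparisons share samples. With each sample left out in turn, Rpl3l missed the threshold in 6 of 8 fits in ventral tongue (adjusted p up to 0.308) and in 7 of 8 in buccal mucosa (up to 0.206), and passed without either buccal mucosa sample in the first and without buccal mucosa replicate 1 in the second. Ppargc1a kept its call only without a buccal mucosa sample, with an adjusted p of 0.0814 to 0.322 without any of the other 6.

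Fast skeletal muscle transcripts moved with the mitochondrial share. The 14 fast muscle markers summed to 475.4 and 135.1 CPM in hard palate, against 31460 to 102800 CPM in the 6 other samples, and none was at 0 in any sample. In hard palate replicate 1 the level was uneven, with 12400 CPM of non-mitochondrial reads in section 19 and 5860 in section 4. By region they summed to 33000 and 38000 CPM in epithelium-rich ventral tongue, against 87400 and 74500 CPM in epithelium-poor ventral tongue. Within a sample, the rank correlation over 20 sections between the share and these markers (as CPM of non-mitochondrial reads) was 0.93 and 0.91 in ventral tongue, 0.99 and 0.97 in dorsal tongue, 0.91 and 0.78 in buccal mucosa, and 0.22 and 0.72 in hard palate. With the keratinocyte markers it was -0.95 and -0.97 in ventral tongue, -0.51 and -0.85 in dorsal tongue, -0.82 and -0.75 in buccal mucosa, and -0.33 and -0.64 in hard palate. Sections of a block share its gradients, so these values describe and do not test.

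By region all 14 fast muscle markers fell in epithelium-rich sections, as did 8 of 8 smooth muscle and pericyte markers, 7 of 7 endothelial, 6 of 7 nerve, 6 of 8 macrophage, 5 of 7 adipocyte, 4 of 5 red blood cell, 4 of 9 fibroblast, 2 of 4 slow muscle, 1 of 3 brown adipocyte and 1 of 4 salivary gland markers tested, beside 13.8% of all genes, while 17 of 20 keratinocyte markers, from which the regions were drawn, rose, beside 12.9%. Markers of other cells also moved along the blocks. The rank correlation with the red blood cell markers was 0.48 to 0.91 in 7 samples and -0.45 in buccal mucosa replicate 2, and with the adipocyte markers it was 0.34 to 0.95 in 7 samples and -0.44 in that sample. Slow muscle markers summed to 181.0 to 235.3 CPM in every sample, with rank correlations between -0.74 and 0.85. Among indicators of RNA quality, 4 nuclear-retained RNAs summed to 1046 and 1011 CPM in hard palate, against 304.5 to 551.8 CPM elsewhere, and 10 stress genes to 888.3 and 1240 CPM, against 242.5 to 880.9 CPM. Their part in the differences between sites and regions was not tested.

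The genes whose section profile was most like that of the share were ranked by the mean over 8 samples of the rank correlation across sections, among 2830 genes with a mean of at least 50 CPM. Slc25a4, the ADP/ATP carrier of the inner membrane in muscle, came first with a mean rank correlation of 0.878 and values between 0.46 and 1.00. Tpm1 (tropomyosin, 0.871), the muscle transcription factor Mef2c (0.865), Fhl1 (0.861), the calcium channel subunit Cacna2d1 (0.846) and Sdha of complex II (0.845) followed. Pink1 (a kinase of mitochondrial quality control, 0.843), Abcc9 (0.839), Myl1 (myosin light chain, 0.835) and Serpinb6a (0.835) completed the first 10. Nuclear oxidative phosphorylation genes had a median mean rank correlation of 0.67 (71 ranked), cytosolic ribosomal protein genes of -0.28 (76 ranked) and all ranked genes of 0.05.

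**Figure D5:**
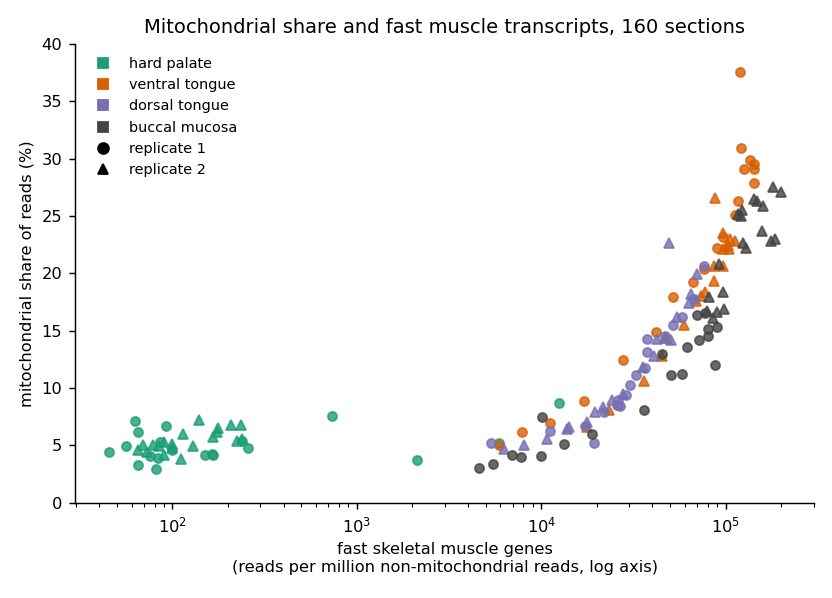
Mitochondrial share of reads (%) against the summed level of 14 fast skeletal muscle genes (CPM of non-mitochondrial reads, log axis), a point per section, 160 in all. Colours are sites, circles and triangles replicates 1 and 2. Of 40 hard palate sections 38 lie below the lowest muscle level of the other sites (4590 CPM), and section 19 of replicate 1, with 12400 CPM and the highest hard palate share (8.68%), lies within their range.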

How the data were processed

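Per the labels' protocols, libraries were made by CEL-seq2, which primes from poly(A) tails and counts 3′ ends, from single sections with reads of 75 bases. The submitters' processing notes name the build GRCm38, the aligner STAR 2.7.9a and, for trimming, Trim Galore 0.6.10. The counting program is not named in these notes or labels. By sample the authors deposited 3 tables, which by their values hold read counts, UMI counts and estimated counts, the last a collision correction of the UMI counts. Read counts were used because UMI counts stop just above 4000. Members and lists were chosen with earlier results of these data known.

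Reads were summed per sample, or per region of a sample, for all genes. The test was the quasi-likelihood one of edgeR 4.0.16 in R 4.3.3 after filterByExpr and TMM scaling, with Benjamini-Hochberg adjusted p under 0.05 as a call. Site fits used all 8 samples, and region fits had the sample as a block. Regions came from the mean log2(CPM + 1) of 20 keratinocyte genes in UMI counts, smoothed by a running median of 3 sections and split by Otsu's threshold. Estimated counts were rounded. The scripts were tested on simulated data. There the hard palate contrast recovered 13 of 48 genes changed by a log2 fold of 2 and 1 of 50 changed by 1. It recovered 39 of 49 changed by 4 and 48 of 49 changed by 6, with 15 false calls among 18743 unchanged genes. The region contrast recovered 44 of 50 changed by 1, with 10 false calls among 15421 unchanged genes. A member without a call between sites is thus not shown to be unchanged. Python 3.11.15, pandas 2.3.3 and scipy 1.17.1 gave shares with exact binomial 95% intervals.

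Named were all messenger RNAs and rRNAs, the 3 tRNAs with most reads, the 2 largest rises and falls of nuclear list genes per comparison, nuclear copies, and the 10 genes most like the share. A gene that this rule picks is not reported here. Alternatives were UMI and estimated counts, RLE scaling, no filter, DESeq2 1.42.0, a replicate block, mitochondrial reads left out of library sizes, sections 1 to 10 against 11 to 20 as regions and each sample left out. Leaving out sections under 100000 reads, the bins of 5 sections, gene ratios and the search for copies were chosen after the data had been seen.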

Additional observations from a re-analysis of the deposited data

Results flagged for a closer look

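A sample far from the other 7 was found in 3 of 19 sets of 8 values looked at. The sets share the same 8 samples, so this count was not compared with a chance rate. The rank correlation of the mitochondrial share with section number was 0.52 in hard palate replicate 1, against 0.82 to 0.98 in the others. The log2 ratio of mt-Nd6, epithelium-rich over epithelium-poor, was 1.51 in hard palate replicate 1. That of mt-Tm, the tRNA for methionine, was -2.36 in buccal mucosa replicate 1.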

How the results depend on the processing

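Counts of mitochondrial genes called depended on tool and filter. In this paragraph numbers of all genes called are given for the reported fit, DESeq2 and no filter only. For UMI counts, estimated transcripts and the fits with a sample left out they are not given. The member counts there describe those fits alone and do not set the members apart from other genes. In hard palate 1 was called in the reported fit, 2 in UMI counts, 2 in estimated transcripts, 4 with no filter and 10 by DESeq2. In ventral tongue 0 became 1 with RLE, 5 with no filter, 8 by DESeq2 and 1 with mitochondrial reads left out of library sizes. Dorsal against ventral tongue had 1 with no filter. Any difference between sites had 1 with RLE, 7 with no filter, 11 by DESeq2 and 1 with mitochondrial reads left out. Epithelium-rich against epithelium-poor had 6 of 14 left in UMI counts, and the dependence on site had 7 with no filter and 3 by DESeq2. In UMI counts the region folds of mt-Nd1 (0.20), mt-Nd2 (0.05), mt-Nd4 (0.25), mt-Cytb (0.24) and mt-Rnr2 (0.14) changed sign. mt-Rnr1 in hard palate ranged from -0.61 to 0.07 with a sample left out, positive without buccal mucosa replicate 2 alone. The cause was not tested. As UMIs the mean shares were 2.20% in hard palate, 3.89% in ventral tongue, 2.90% in dorsal tongue and 5.0% in buccal mucosa. As estimated transcripts they were 16.5% in ventral tongue and 10.6% in dorsal tongue, and without rRNA genes dorsal tongue had 11.4%. With each sample left out, a lone sample being assumed to vary like the other groups, calls were 0 to 11 in hard palate, 0 to 13 in ventral tongue, 0 to 2 in buccal mucosa, 0 to 11 for any difference and 8 to 16 for regions. All genes called numbered 1758 in hard palate (3130 by DESeq2, 3651 with no filter), 184 in ventral tongue (812, 1163), 148 in dorsal tongue (2.74% of genes by DESeq2, 1201), 169 in buccal mucosa (1494, 2616), 1 for dorsal against ventral tongue (137, 346), 782 for any difference (3278, 4416) and 1 for dependence on site (67, 541). Leaving mitochondrial reads out moved the median fold of all genes from -0.09 to 0.04 in ventral tongue and from 0.05 to -0.10 in dorsal against ventral tongue. No entry joined several genes with a mitochondrial one, so that alternative was identical.

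Correlations of same-numbered deviations were 0.51 between dorsal and ventral tongue and -0.30 to 0.01 over the other site pairs. The fits took the samples as unpaired, the 2 tongue surfaces included. Whether same-numbered tongue samples came from the same animals was not tested. With the replicate block 1 member was called in hard palate (mt-Tm in place of mt-Co1), 0 in ventral tongue and 14 for regions, and all genes called fell to 3 in buccal mucosa, 83 in dorsal tongue, 0 in ventral tongue, 0 for dorsal against ventral tongue and 371 for any difference. mt-Co1 in hard palate was then at -2.30 (edgeR, adjusted p = 0.0573).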

Other observations

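The tRNA genes mt-Ta and mt-Tn, for alanine and asparagine on the light strand, had 9 reads each in all and equal levels in each of the 8 samples, at most 0.140 CPM. The nuclear pseudogene Gm13341, which shares runs of bases with mt-Co2, had 6194 reads in all, against 414 for mt-Co2 itself. Gm13340, which shares runs with mt-Co1, had 5369, against 257663 for mt-Co1.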
